A study of Mus musculus with 12 samples.

Results

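The glucocorticoid receptor gene *Nr3c1*, the 11-beta-hydroxysteroid dehydrogenase genes *Hsd11b1* and *Hsd11b2*, and 7 known direct targets of the receptor (*Fkbp5*, *Tsc22d3*, *Zbtb16*, *Sgk1*, *Cebpd*, *Mt1* and *Mt2*) were followed through the transcriptomes of newborn *Man1a2* mice. The 10 genes were taken by symbol from the 24421 rows of the count tables, and all 10 were found. RNA was taken from the liver and the lung of 3 WT mice (*Man1a2*+/+) and 3 null mice (*Man1a2*-/-), which gives 3 libraries for each genotype and tissue and 12 in all. The mice were killed at P0, within 30 to 60 minutes of birth, and came from the breeding of *Man1a2*+/- mice. The null allele, *Man1a2*tm1.1Ahe, lacks exon 2 of a Golgi mannosidase gene in every cell of the animal, and sex and litter were not used here. Liver and lung libraries came from the same 3 mice of a genotype, so the tissues are not independent of each other.

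Glucocorticoids act through a receptor that waits in the cytoplasm on a chaperone complex, moves to the nucleus when it binds hormone, and changes the transcription of genes near its binding sites. The amount of active hormone inside a cell also depends on the dehydrogenases: the enzyme encoded by *Hsd11b1* mainly regenerates active hormone and the one encoded by *Hsd11b2* inactivates it. In late gestation and at birth glucocorticoids rise, and they are known for maturing the lung and for switching on gluconeogenic enzymes in the liver.

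Depth was 26759463 to 42914295 counted reads per library, so that 3 reads stood at 0.103 to 0.126 CPM in liver and 0.0538 to 0.0856 CPM in lung, in the TMM-scaled unit used below. *Man1a2* itself was at 54.2 to 87.0 CPM in WT liver and 48.2 to 53.7 CPM in null liver, and at 75.6 to 107 CPM in WT lung and 42.7 to 50.2 CPM in null lung, with log2 fold changes of -0.47 (edgeR adjusted p = 0.0809) and -1.01 (adjusted p = 0.0614) that were not called. These counts hold reads from the exons that the null allele keeps, so they check the genotype labels only in part. The library of null lung 1 went against its tissue label in its alveolar and muscle markers, and not in its ciliated cell markers. Its 3 ciliated cell markers summed to 229 CPM, against 137 to 198 CPM in the other lung libraries. Its 4 alveolar type 1 cell markers summed to 286 CPM, against 1507 to 1882 CPM. Its summed level of 6 alveolar type 2 cell markers was 82.8 CPM, against 17920 to 24526 CPM in the other lung libraries, and its summed level of 6 striated and heart muscle markers was 14599 CPM, against 197 to 569 CPM. The library of null liver 1 held the same muscle markers at 5167 CPM, against 3.74 to 5.53 CPM in the other liver libraries, while its 6 hepatocyte markers summed to 192944 CPM, within the 152495 to 248348 CPM of the others. Results that rest on these 2 libraries are therefore given with and without them.

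Differences between WT and null were tested within each tissue by the quasi-likelihood test of edgeR with Benjamini-Hochberg adjustment over all genes tested, and a gene was called where the adjusted p was below 0.05 and the groups differed 1.2-fold or more. Levels are CPM on library sizes scaled by TMM factors, and differences are log2 fold changes of null over WT with their standard errors (SE). In the liver 7 of the 9 members tested were called, all of them higher in null mice: *Nr3c1*, *Fkbp5*, *Tsc22d3*, *Zbtb16*, *Sgk1*, *Mt1* and *Mt2*. Of all 14343 genes tested in liver, 13.5% were called higher and 26.9% were called in either direction. The median log2 fold change was 1.14 over the members tested and 0.02 over all genes tested. For 8 members every null liver library stood above every WT liver library, which was so for 23.1% of all genes tested. *Hsd11b2* was too low in liver to be tested. The same 7 members were called without null liver 1, where 23.8% of genes were called and 11.9% were called higher. In bulk tissue a change in the number of cells of a type cannot be told apart from a change in RNA per cell, and this holds for every difference below.

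**Figure D1:**
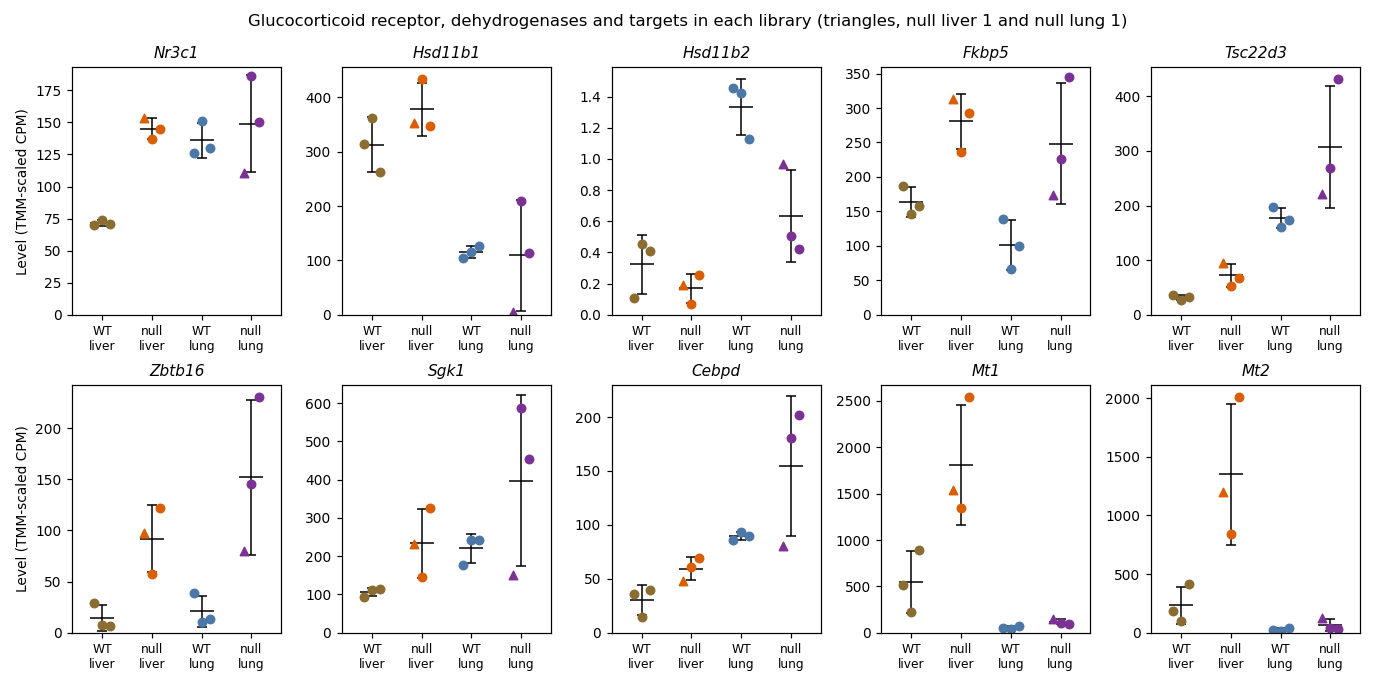
Levels of the 10 genes in the 12 libraries, in TMM-scaled CPM on linear axes that start at 0. Points are libraries, with triangles for null liver 1 and null lung 1, and bars give the mean and SD of 3 libraries. *Nr3c1* separated null from WT in liver and overlapped in lung, and null lung 1 lay at 5.56 CPM for *Hsd11b1*.

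*Nr3c1* encodes the receptor itself. Its levels in WT liver 1, 2 and 3 were 69.6, 73.8 and 70.8 CPM, and those in null liver 1, 2 and 3 were 153, 137 and 145 CPM. The null livers all lay far above the WT livers, and the spread within each genotype was small, with group means of 71.4 ± 2.18 and 145 ± 8.33 CPM (SD, n = 3). The log2 fold change was 1.02 with an SE of 0.09 (edgeR adjusted p = 0.0020), and it ranged from 0.99 to 1.04 and was called in all 6 fits that dropped a single liver library.

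In lung the receptor gene showed no such separation. WT lung 1, 2 and 3 held 126, 151 and 130.2 CPM of *Nr3c1*, and null lung 1, 2 and 3 held 110.5, 186 and 150.1 CPM. The genotypes overlapped, and the log2 fold change was 0.13 ± 0.21 with all libraries (SE, edgeR adjusted p = 0.734) and 0.30 ± 0.13 without null lung 1 (adjusted p = 0.106). WT lung held a mean of 136 ± 13.5 CPM (SD, n = 3). In WT mice *Nr3c1* was higher in lung than in liver by a log2 difference of 0.93 ± 0.17 (SE, edgeR adjusted p = 0.00081).

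Whether null and WT mice differed by the same amount in lung as in liver was tested with an interaction term over all 12 libraries. For *Nr3c1* the effect in lung minus that in liver was -0.89 ± 0.24 on the log2 scale (SE, edgeR adjusted p = 0.149), and none of the 10 members was called, where 0.371% of 16155 genes were. At an unadjusted p under 0.05 there was 1 member, *Nr3c1*, beside 13.9% of all genes, and DESeq2 called it alone (log2 difference -0.87, adjusted p = 0.0285), where it called 3.94% of genes. Without null lung 1 edgeR called *Nr3c1* alone, at -0.69 ± 0.16 (adjusted p = 0.0374), and then 5% of genes were called. Without null liver 1 as well it was at -0.69 ± 0.18 (adjusted p = 0.0484), where 5.18% of genes were called. With both null libraries number 1 left out and the mice as a block, *Nr3c1* was at -0.69 with an adjusted p of 0.0542, and *Mt2* was the member called, at -2.03 (adjusted p = 0.0182), where 6.13% of genes were called.

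*Hsd11b1*, whose enzyme regenerates active glucocorticoid (chr1:193221634-193264075, minus strand, GENCODE on GRCm38), was at 314, 362 and 262 CPM in WT liver 1, 2 and 3. In null liver 1, 2 and 3 it was at 352, 433 and 348 CPM. The genotypes overlapped and the log2 fold change was 0.27 ± 0.15 (SE, edgeR adjusted p = 0.223). In WT lung it was at 104, 116 and 126 CPM and in null lung 1, 2 and 3 at 5.56, 208 and 113 CPM. The low value belongs to null lung 1, the library low in alveolar markers. The log2 fold change was -0.09 ± 1.01 with that library (edgeR adjusted p = 0.965) and 0.47 ± 0.22 without it (adjusted p = 0.135).

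*Hsd11b2*, whose enzyme inactivates the hormone (chr8:105518755-105523988, plus strand), was near the limit of detection in liver, with 3, 11 and 12 counted reads in WT liver and 5, 2 and 6 in null liver. In lung it was low but measurable, at 1.45, 1.42 and 1.13 CPM in WT lung 1, 2 and 3, and at 0.970, 0.505 and 0.424 CPM in null lung 1, 2 and 3. Every null lung library lay below every WT lung library. The log2 fold change was -1.08 ± 0.41 with all libraries (SE, edgeR adjusted p = 0.179) and -1.52 ± 0.30 without null lung 1 (adjusted p = 0.0073). It was the member called lower in that fit, which called 19% of genes lower. The log2 ratio of *Hsd11b1* to *Hsd11b2* counts per kb was higher in null than in WT liver by 1.06 (two-sided exact permutation p = 0.3), on very few *Hsd11b2* reads. In lung the ratio differed by -0.03 with all libraries (exact permutation p = 1.0) and by 1.92 without null lung 1 (exact permutation p = 0.2). With 3 against 3 libraries this test cannot give a p under 0.1, and with 2 against 3 it cannot give one under 0.2. Without null lung 1 the ratios were 8.84 and 8.21 in null lung and 6.33 to 6.98 in WT lung.

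*Fkbp5* encodes an immunophilin of the receptor's chaperone complex that lowers the affinity of the receptor for hormone, and it is itself induced by the receptor (chr17:28399094-28517527, minus strand). Its levels were 187, 146 and 157 CPM in WT liver 1, 2 and 3 and 313, 236 and 293 CPM in null liver 1, 2 and 3. The null livers all lay above the WT livers. Null exceeded WT liver by a log2 fold change of 0.77 ± 0.16 (SE, edgeR adjusted p = 0.0120), and the call was lost without WT liver 3 (adjusted p = 0.0582) and with all 12 libraries in 1 fit (adjusted p = 0.115). In WT lung 1, 2 and 3 it was at 139, 66.6 and 99.1 CPM, and in null lung 1, 2 and 3 at 174, 226 and 345 CPM, again without overlap.

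*Tsc22d3* encodes GILZ, a leucine zipper protein that mediates anti-inflammatory effects of glucocorticoids (chrX:140539528-140600659, minus strand). It was at 36.0, 27.7 and 32.2 CPM in WT liver 1, 2 and 3 and at 94.9, 53.4 and 67.6 CPM in null liver 1, 2 and 3, with no overlap. This gave a log2 fold change of 1.16 ± 0.21 (SE, edgeR adjusted p = 0.0083), and the call was kept in each of 6 fits with 1 liver library left out, the highest adjusted p being 0.0409. In lung it was at 197, 161 and 174 CPM in WT and at 220.5, 268 and 432 CPM in null lung 1, 2 and 3. The lungs of the null mice lay above all WT lungs, though null lung 1 only by a little.

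*Zbtb16* encodes the zinc finger repressor PLZF (chr9:48654297-48836222, minus strand) and had a log2 fold change near that of *Mt2* in liver, with an order that turned without WT liver 3 (2.31 for *Zbtb16* and 3.24 for *Mt2*). Its levels were 29.3, 7.22 and 6.64 CPM in WT liver 1, 2 and 3 and 97.2, 57.4 and 122 CPM in null liver 1, 2 and 3. In liver the log2 fold change was 2.66 ± 0.61 (SE, edgeR adjusted p = 0.0182), and it was no longer called without WT liver 2 (adjusted p = 0.0637) or WT liver 3 (adjusted p = 0.0628). In WT lung 1, 2 and 3 it was at 38.5, 10.2 and 13.4 CPM and in null lung 1, 2 and 3 at 79.9, 145 and 230.4 CPM. The genotypes did not overlap in either tissue. WT mouse number 1 had the highest WT level in both of its tissues. *Zbtb16* also marks some innate lymphoid and T cells, and the 8 lymphoid markers summed to 46.6 to 59.4 CPM in WT liver and 37.2 to 55.7 CPM in null liver. None of the 5 tested was called with all libraries, and 2 were called lower without null liver 1.

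*Sgk1* encodes a serum and glucocorticoid regulated kinase that acts on ion channels and transporters (chr10:21882184-21999903, plus strand). In WT liver 1, 2 and 3 it was at 93.7, 112 and 114 CPM, and in null liver 1, 2 and 3 at 233, 145 and 325 CPM. The groups did not overlap, and the null livers were widely spread. Their log2 fold change was 1.14 ± 0.27 (SE, edgeR adjusted p = 0.0206). The call was lost without WT liver 1, 2 or 3 (adjusted p = 0.0769, 0.0687 and 0.0694) and with all 12 libraries in 1 fit (adjusted p = 0.114). In lung it was at 176, 242 and 243 CPM in WT and at 152, 587 and 453 CPM in null lung 1, 2 and 3. Null lung 1 lay below the WT lungs and the other null lungs lay above them.

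A start site of *Sgk1* held the full palindrome known to bind the receptor. RefSeq promoter windows on GRCm38.p6 ran from 250 bases before to 50 bases after a start. For 6 members, 13 windows in all were searched on both strands. No window was searched for *Nr3c1*, *Hsd11b2*, *Zbtb16* or *Cebpd*. The search was for the palindrome (AGAACA, any 3 bases, then TGTTCT), the hexamer AGAACA alone, and the metal response element cores TGCGCNC and TGCACNC. The palindrome was found in 1 of the 6 *Sgk1* windows, 189 bases before the start, and in 3 of the 32851 windows in the table (0.00913%). The hexamer, which is part of the palindrome, was in 19.0% of all windows. The *Sgk1* window is shown because it holds that match, in capitals, at chr10:21993640-21993939 on the plus strand.
Sgk1: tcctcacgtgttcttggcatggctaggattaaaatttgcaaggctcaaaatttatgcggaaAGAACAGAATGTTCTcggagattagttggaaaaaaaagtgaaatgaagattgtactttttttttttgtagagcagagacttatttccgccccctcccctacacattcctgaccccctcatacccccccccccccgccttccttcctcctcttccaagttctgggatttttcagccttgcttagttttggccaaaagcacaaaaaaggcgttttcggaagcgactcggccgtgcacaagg

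A match of letters is a description of the sequence, and binding was not measured here. The hexamer was also found in 2 other *Sgk1* windows and in 1 of 3 *Tsc22d3* windows, 185 bases before the start, and the windows of *Fkbp5*, *Hsd11b1*, *Mt1* and *Mt2* held neither form.

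*Cebpd* encodes the transcription factor C/EBP delta (chr16:15887286-15891031, plus strand). Its single exon overlaps exons of *Spidr* on the other strand, with which it shares 13.1% of its 75-base stretches, and whether counting used the strand is not given in the sources used here, so its counts are uncertain to that extent. It was at 36.1, 14.2 and 39.9 CPM in WT liver 1, 2 and 3 and at 48.0, 60.5 and 69.1 CPM in null liver 1, 2 and 3. The null livers lay above the WT livers, with a log2 fold change of 0.97 ± 0.36 (SE) that was not called by edgeR (adjusted p = 0.0810) and was called by DESeq2 (adjusted p = 0.0148), which called 29.8% of all genes. In lung *Cebpd* was at 86.0, 93.4 and 90.1 CPM in WT and at 80.9, 181 and 202 CPM in null lung 1, 2 and 3. Null lung 1 lay below the WT lungs and the other null lungs lay above them.

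*Mt1* and *Mt2* encode metallothioneins, small proteins that bind zinc and copper and are induced by metals through the factor MTF1 as well as by glucocorticoids. They lie 5514 bases apart on chromosome 8, *Mt2* at chr8:94172664-94173568 and *Mt1* at chr8:94179082-94180327, both on the plus strand, and share none of their 75-base stretches. *Mt2* shares 30.2% of its stretches with *Gm45774* on the other strand. Their promoter windows are shown because these neighbours rose together, with the metal response element cores in capitals. *Mt2* (chr8:94172368-94172667) holds 4 and *Mt1* (chr8:94178839-94179138) holds 3. The cores do not overlap each other there, and TGCGCNC is in 15.4% and TGCACNC in 12.6% of all windows.
Mt2: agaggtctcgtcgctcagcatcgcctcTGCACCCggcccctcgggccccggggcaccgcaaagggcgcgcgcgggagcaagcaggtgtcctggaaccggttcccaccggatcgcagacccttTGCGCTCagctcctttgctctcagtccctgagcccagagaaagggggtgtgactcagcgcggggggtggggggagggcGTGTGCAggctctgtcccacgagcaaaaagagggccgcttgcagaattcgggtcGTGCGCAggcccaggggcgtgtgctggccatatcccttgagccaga
Mt1: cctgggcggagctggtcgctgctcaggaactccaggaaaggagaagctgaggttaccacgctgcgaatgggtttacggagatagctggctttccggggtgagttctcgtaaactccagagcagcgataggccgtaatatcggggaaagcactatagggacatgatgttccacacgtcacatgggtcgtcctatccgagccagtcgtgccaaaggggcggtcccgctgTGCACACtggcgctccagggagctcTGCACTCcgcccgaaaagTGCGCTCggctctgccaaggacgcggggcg

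*Mt1* was at 519, 227 and 894 CPM in WT liver 1, 2 and 3 and at 1536, 1346 and 2543 CPM in null liver 1, 2 and 3. *Mt2* was at 181, 103 and 413 CPM in WT liver and at 1199.5, 841 and 2009 CPM in null liver. Both genes were widely spread among WT livers, and every null liver still lay above them. The log2 fold change of *Mt1* was 1.72 ± 0.48 (SE, edgeR adjusted p = 0.0351), and the call was lost without WT liver 1, WT liver 2 or null liver 3 (adjusted p = 0.106, 0.0564 and 0.0900). That of *Mt2* was 2.53 ± 0.54 (adjusted p = 0.0149), and the call was lost without WT liver 1 (adjusted p = 0.0598).

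The log2 ratio of *Mt1* to *Mt2* counts per kb fell from 1.15 ± 0.23 in WT liver to 0.35 ± 0.19 in null liver (SD, n = 3). The groups did not overlap, and the difference of -0.80 had a two-sided exact permutation p of 0.1, the smallest that 3 against 3 can give. In lung, where both genes were far lower, *Mt1* was at 55.0, 39.2 and 74.2 CPM in WT and at 148, 106 and 95.5 CPM in null lung 1, 2 and 3. *Mt2* was at 19.1, 13.2 and 37.8 CPM in WT lung and at 123, 35.8 and 33.0 CPM in null lung. The high *Mt2* value is that of null lung 1, and the other null lungs lay inside the WT range. The ratio in lung differed by -0.24 with all libraries (two-sided exact permutation p = 0.7), and the sign turned to 0.19 without null lung 1 (exact permutation p = 0.8).

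**Figure D2:**
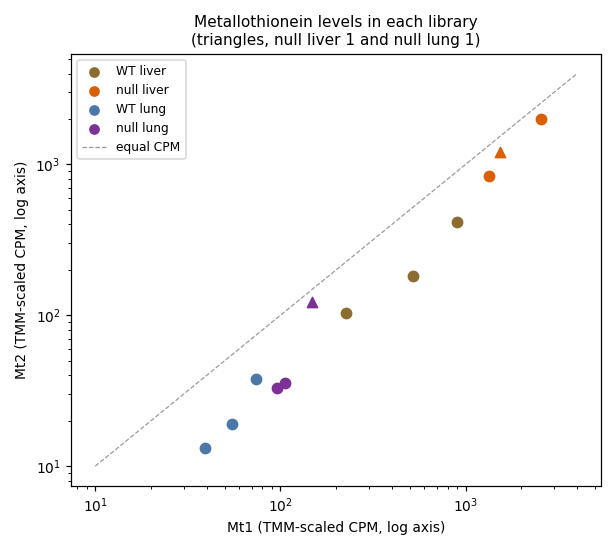
*Mt2* against *Mt1* in each library, in TMM-scaled CPM on log axes, with triangles for null liver 1 and null lung 1 and a dashed line where both are equal. All points lie below the line, and the null livers lie nearer to it than the WT livers.

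In the lung as a whole none of the 10 members was called with all 6 libraries, where edgeR called 0.327% of 15591 genes. At an unadjusted p under 0.05 there were 5, beside 25% of all genes, and DESeq2 called 3, *Fkbp5*, *Zbtb16* and *Mt1*, where it called 15.1% of genes. The log2 fold changes with all libraries were 1.29 ± 0.36 for *Fkbp5*, 0.80 ± 0.28 for *Tsc22d3*, 2.87 ± 0.64 for *Zbtb16*, 1.06 ± 0.29 for *Mt1* and 1.46 ± 0.65 for *Mt2* (SE). With all 6 libraries 4 members had every null lung above every WT lung and 1, *Hsd11b2*, had every null lung below, where 16.4% and 19.6% of genes did.

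Without null lung 1, 7 of the 10 members were called, 6 higher and 1 lower, and edgeR then called 18% of 15885 genes higher and 37% in either direction. The log2 fold changes were 1.49 ± 0.29 for *Fkbp5* (edgeR adjusted p = 0.0078), 0.98 ± 0.20 for *Tsc22d3* (0.0084), 3.17 ± 0.51 for *Zbtb16* (0.0038) and 1.23 ± 0.17 for *Sgk1* (0.0022). *Cebpd* was higher by 1.09 ± 0.10 (edgeR adjusted p = 0.00074) and *Mt1* by 0.83 ± 0.23 (adjusted p = 0.0249). *Mt2*, at 0.55 ± 0.37 (adjusted p = 0.279), was not called. This fit rests on 2 null lungs, and 5 of its 7 called members were also called in liver, as were 36.9% of all genes it called. Without that library 6 members had every null lung above every WT lung and 1 had every null lung below, where 29.7% and 31.9% of genes did. DESeq2 also called 7 members there, where it called 40.7% of genes. The median over the members was 0.91 and that over all genes tested was -0.01.

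**Figure D3:**
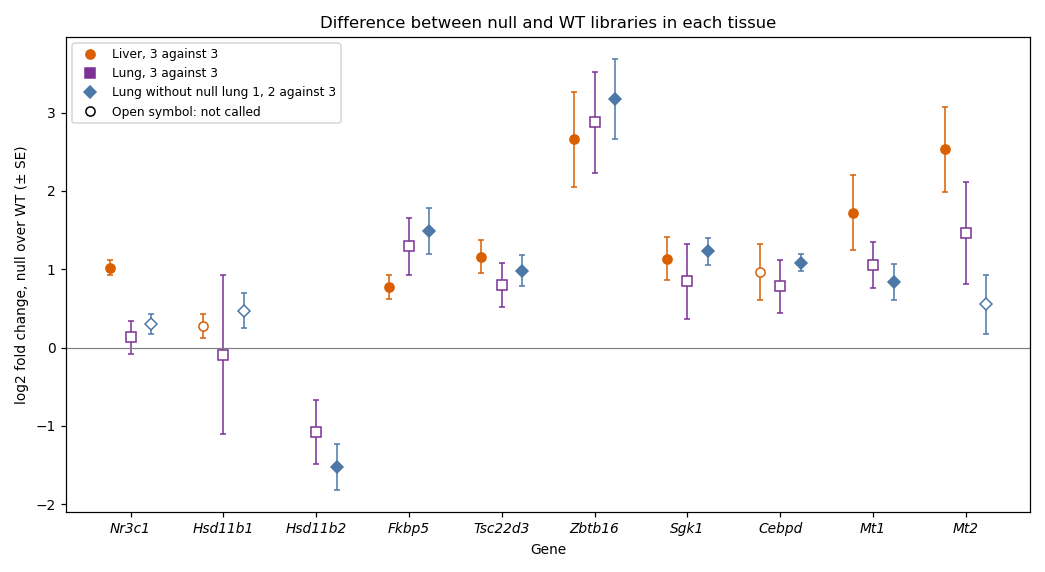
Log2 fold change of null over WT for each gene with its SE, in liver (3 against 3 libraries), in lung (3 against 3) and in lung without null lung 1 (2 against 3). Filled symbols were called by edgeR. Liver has 7 filled symbols, lung has none and lung without null lung 1 has 7, and *Hsd11b2* has no liver value.

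Each library was also set against the mean of the WT libraries of its tissue on the log2(CPM + 0.5) scale. Null liver 3 had the largest rises of the null livers for *Zbtb16*, *Sgk1*, *Cebpd*, *Mt1* and *Mt2*, and null liver 1 for *Nr3c1*, *Fkbp5* and *Tsc22d3*. After the tissue means were taken out, *Fkbp5* and *Zbtb16* moved together over the 12 libraries with a correlation of 0.94, *Tsc22d3* and *Zbtb16* with 0.90, and *Mt1* and *Mt2* with 0.97. *Hsd11b1* followed none of the targets closely, its highest correlation with a target being 0.50, for *Sgk1*. Without null lung 1 the correlations of those pairs were 0.94, 0.91 and 0.97, and that of *Hsd11b1* with *Sgk1* was 0.54. Leaving that library out moved *Hsd11b1* from -0.40 to 0.26 with *Mt2*, from -0.25 to 0.26 with *Mt1* and from -0.03 to 0.42 with *Zbtb16*. All these libraries share the genotype difference, so the correlations describe the libraries and carry no test. Among 13327 genes those most like *Nr3c1* were *Dennd5a*, *Bcl10* and *Leprot*, each with a correlation of 0.97. Those most like *Fkbp5* were *Ddx52* (0.96), *Rtf1* (0.95) and *Cand1* (0.95). For *Tsc22d3* they were *Sbno1*, *Mlxip* and *Rsf1* (all 0.96), and for *Mt1* they were *Mt2* (0.97), *H1fx* (0.96) and *Prkcsh* (0.93).

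**Figure D4:**
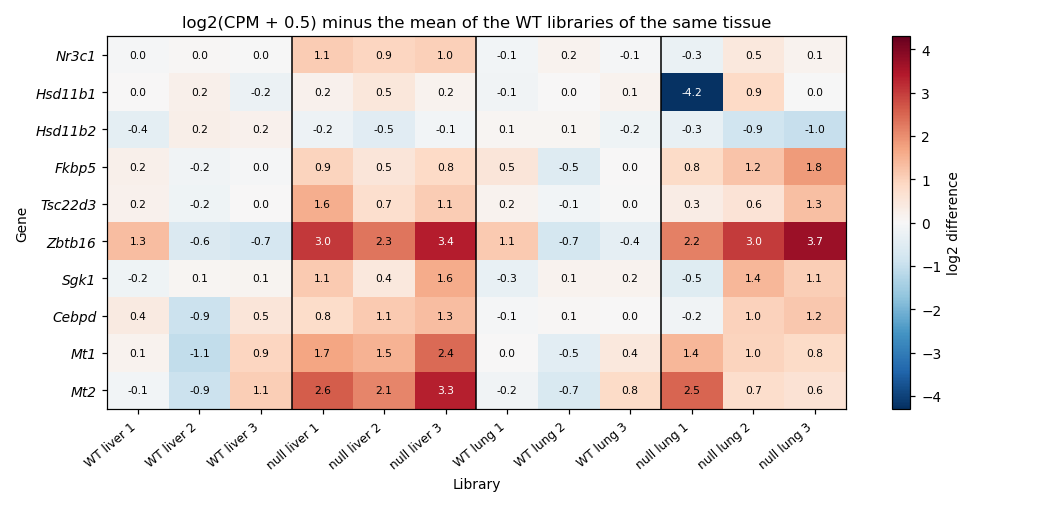
Difference of each library from the mean of the 3 WT libraries of its tissue, on the log2(CPM + 0.5) scale, with genes as rows and libraries as columns. All null livers are above 0 in every row but that of *Hsd11b2*, where all are below, and null lung 1 differs from the other null lungs for *Hsd11b1*, *Sgk1*, *Cebpd* and *Mt2*.

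In WT mice about the same share of members as of all genes differed between the tissues. *Nr3c1*, *Tsc22d3*, *Cebpd* and *Hsd11b2* were called higher in lung, with log2 differences of lung over liver of 0.93 ± 0.17, 2.47 ± 0.28, 1.58 ± 0.40 and 2.04 ± 0.55 (SE). *Mt1* and *Mt2* were called lower in lung, at -3.28 ± 0.49 and -3.32 ± 0.71. That made 6 of 10 members, where edgeR called 62.7% of 16155 genes, 32.4% higher and 30.3% lower in lung. *Fkbp5* was at -0.69 ± 0.30 (edgeR adjusted p = 0.0646) and was called with the mice as a block (-0.74, adjusted p = 0.0329). *Hsd11b1* was at -1.44 ± 0.81 (adjusted p = 0.142), *Sgk1* at 1.05 ± 0.43 (0.0539) and *Zbtb16* at 0.53 ± 0.68 (0.513). Without null liver 1 and null lung 1, whose spread enters the shared fit, 9 members were called, where 74.2% of genes were, and *Hsd11b1* was then lower in lung at -1.45 ± 0.21 (adjusted p = 6.68e-05).

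Set per kb of the longest principal transcript, the levels in WT liver ran from *Mt1* at 996 CPM per kb, *Mt2* at 455 and *Hsd11b1* at 193, through *Sgk1* at 43.4, *Fkbp5* at 42.4, *Tsc22d3* at 16.2, *Nr3c1* at 11.1 and *Cebpd* at 8.03, to *Zbtb16* at 2.81 and *Hsd11b2* at 0.176. The libraries of neighbours overlapped for *Mt1* and *Mt2*, *Mt2* and *Hsd11b1*, *Sgk1* and *Fkbp5*, and *Cebpd* and *Zbtb16*. In WT lung *Mt1* at 102, *Sgk1* at 89.7 and *Tsc22d3* at 89.7 CPM per kb headed the order and overlapped each other. In null liver *Mt2* reached 2642 CPM per kb, overlapped *Mt1* and no longer overlapped *Hsd11b1* at 233.

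Of 40 other glucocorticoid targets listed, 39 were in the files and all 39 were tested in liver. There 17 were called higher and 1 lower, beside 13.5% and 13.4% of all genes, and 21 were not called. The median log2 fold change of the 39 was 0.95. The largest of those called were *Fam107a*, an actin-associated protein gene, at 4.37 ± 0.63 (SE, edgeR adjusted p = 0.0045), and the kinase gene *Map3k6* at 3.24 ± 0.38 (adjusted p = 0.0029). *Lpin1*, a phosphatidate phosphatase gene of fasting liver, was at 2.23 ± 0.54 (0.0226), and the ubiquitin ligase gene *Fbxo32* was at 2.14 ± 0.28 (0.0034). *Ddit4*, an inhibitor of mTORC1, was at 1.94 ± 0.37 (0.0097), and the decoy interleukin-1 receptor gene *Il1r2* at 1.75 ± 0.33 (0.0095). *Fam107a* was close to the limit of detection in WT liver, at 0.103 to 0.282 CPM, and at 1.89 to 7.53 CPM in null liver. *Map3k6* was at 5.08 to 8.56 CPM in WT and 46.7 to 109 CPM in null liver. The gene called lower, named after its value was seen, was the gluconeogenic enzyme gene *G6pc*, at -0.75 ± 0.21 (adjusted p = 0.0335).

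Of 4 further hepatic targets for gluconeogenesis and amino acid breakdown, none passed the test with all libraries. *Pck1* was at 0.19 ± 0.26 (SE, edgeR adjusted p = 0.617), *Tat* at 0.45 ± 0.19 (0.114), *Tdo2* at -1.05 ± 0.82 (0.369) and *Sds* at 0.21 ± 0.15 (0.323). These 4 were also named after their values were seen. Without null liver 1 *Tdo2* was called lower, at -2.31 ± 0.64 (edgeR adjusted p = 0.0344). The muscle ligase gene *Trim63*, at 5.05 ± 1.69 (0.0611), stood at 35.5 CPM in null liver 1, the library with muscle markers, and at 0.315 and 1.09 CPM in the other null livers. Without null liver 1, 19 of the list were called higher and 3 lower, where 11.9% of genes were called in each direction.

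In lung 1 of 38 of these genes tested was called with all libraries, *Fbxo32* at 2.02 ± 0.24 (SE, edgeR adjusted p = 0.04997), beside 0.0898% of all genes called higher. The list had a median of 0.69, beside 0.06 over all genes, and DESeq2 called 13, where it called 15.1% of all genes. With null lung 1 dropped, 22 of 39 were called (19 higher, 3 lower), beside 18% and 19% of all genes. The highest were *Il1r2* at 2.29 ± 0.21, the transcription factor gene *Klf15* at 1.86 ± 0.13, the cell cycle inhibitor gene *Cdkn1a* at 1.81 ± 0.09 and *Fbxo32* at 1.78 ± 0.14. The 3 lower were *Cd163* at -1.33 ± 0.28, *Angptl4* at -0.86 ± 0.20 and *Lcn2* at -0.56 ± 0.17. The clock gene *Per1*, at 1.67 ± 0.19 in liver and 1.45 ± 0.13 in lung without null lung 1, was among 12 genes called higher in both, which is 70.6% of those called higher in liver and 63.2% of those called higher in lung. Over all genes 1059 were called higher in both, which is 54.8% and 37% of those called higher in liver and in lung. *Fbxo32* is also abundant in muscle, and in null lung 1 it was at 78.1 CPM, against 50.2 and 52.6 CPM in the other null lungs and 13.2 to 17.6 CPM in WT lung.

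**Figure D5:**
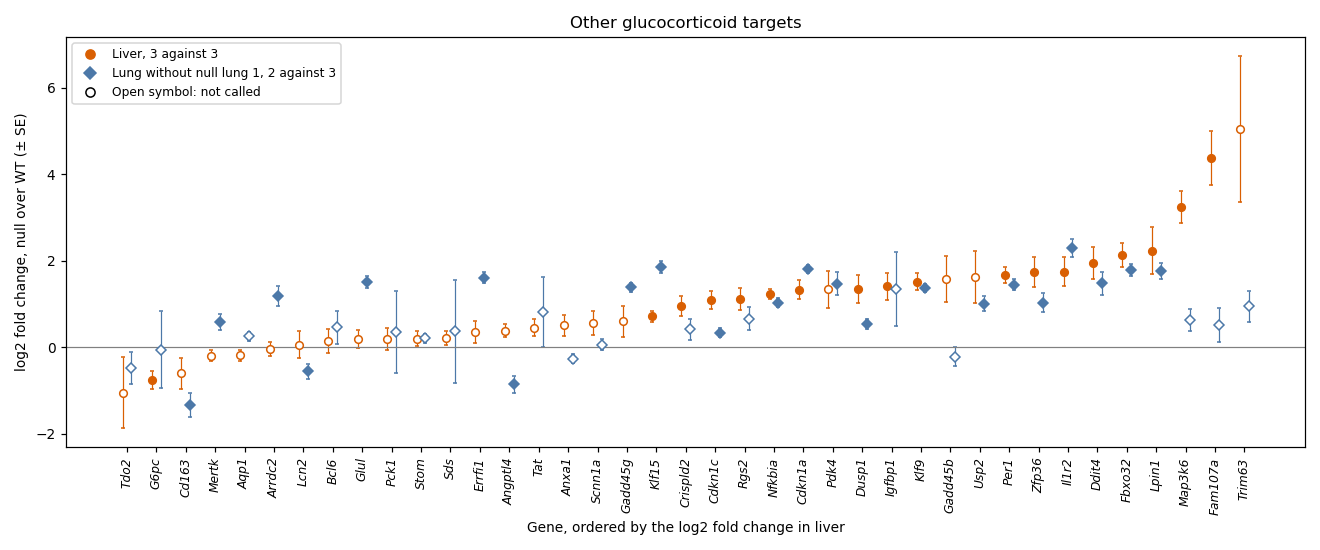
Log2 fold change of null over WT with its SE for the 39 other glucocorticoid targets, in liver (3 against 3 libraries) and in lung without null lung 1 (2 against 3), ordered by the liver value. Filled symbols were called by edgeR. In liver 17 filled symbols are above 0 and 1 is below, and in lung 19 are above and 3 below.

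Among 17 genes of the receptor's chaperones and coregulators, 5 were called higher and 1 lower in liver, beside 13.5% and 13.4% of all genes, with a median of 0.22. They were the corepressor gene *Nrip1* at 1.32 ± 0.16 (SE, edgeR adjusted p = 0.0031), the acetyltransferase genes *Crebbp* at 1.01 ± 0.12 (0.0029) and *Ep300* at 0.55 ± 0.12 (0.0167), and the coactivator genes *Ncoa2* at 0.76 ± 0.14 (0.0096) and *Ncoa1* at 0.73 ± 0.13 (0.0073). The chaperone gene *Hspa8* was lower, at -0.64 ± 0.18 (0.0368), and lost its call without null liver 1. The Hsp90 genes *Hsp90aa1* and *Hsp90ab1*, at 0.12 and 0.27, and the mineralocorticoid receptor gene *Nr3c2*, at 0.22, were not called. In lung none of the 17 was called with all libraries, and with null lung 1 dropped 11 were (8 higher, 3 lower), beside 18% and 19% of all genes.

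Among 12 genes listed for the carriage, supply or breakdown of steroids, 11 were tested in liver and 3 were called, about the 26.9% of all genes. *H6pd*, which supplies the cofactor of the *Hsd11b1* enzyme in the endoplasmic reticulum, was higher at 0.72 ± 0.18 (SE, edgeR adjusted p = 0.0263), and so was the steroid exporter gene *Abcb1a* at 0.999 ± 0.305 (0.0469). *Srd5a3*, a steroid reductase family gene whose action on glucocorticoids was not tested, was lower at -0.42 ± 0.12 (0.0346). *Serpina6*, which encodes the plasma globulin that binds corticosteroids, was at 0.52 (adjusted p = 0.333). In lung 0 of 7 were called with all libraries, and 3 of 8 were called lower without null lung 1, beside 19% of all genes. These were *Akr1c14* at -0.94 ± 0.20 (edgeR adjusted p = 0.0096), *Abcb1a* at -0.90 ± 0.17 (0.0062) and *Srd5a3* at -0.80 ± 0.14 (0.0050). *Abcb1a* thus went the other way in lung than in liver.

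Of 9 metal handling genes 7 were tested in liver, where the zinc exporter gene *Slc30a1* was higher at 0.70 ± 0.12 (SE, edgeR adjusted p = 0.0066), and the transporter genes *Slc30a10* at -0.90 ± 0.17 (0.0088) and *Slc39a10* at -0.84 ± 0.17 (0.0122) were lower. *Mtf1* was at 0.05 (0.765). The median of the list was 0.05, and its 3 calls stood beside 26.9% of all genes. In lung none of 8 was called with all libraries, and with null lung 1 dropped 4 were (2 higher, 2 lower), beside 37% of all genes.

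Among the relatives of *Cebpd*, 1 of 6 was called in liver, beside 26.9% of all genes, *Cebpg*, lower at -0.55 ± 0.15 (SE, edgeR adjusted p = 0.0297). Without null liver 1, 3 of 6 were called, beside 23.8% of all genes. *Cebpa* was then higher at 0.75 ± 0.19 (0.0266), and *Cebpe* at -0.92 ± 0.29 (0.0488) and *Cebpg* at -0.67 ± 0.15 (0.0173) were lower. In lung 0 were called with all libraries and 1 without null lung 1, *Cebpa*, higher at 0.95 ± 0.12 (0.0016), beside 37% of all genes. Among 9 relatives and partners of *Sgk1* and *Tsc22d3*, 7 were tested in liver and 4 were called, beside 26.9% of all genes. *Sgk2*, a kinase close to *Sgk1*, was lower at -2.85 ± 0.26 (adjusted p = 0.0020), going from 41.3 to 46.4 CPM in WT to 3.62 to 8.07 CPM in null liver. *Sgk3* was lower at -0.40 ± 0.09 (0.0197) and lost its call without null liver 1. *Tsc22d2* was higher at 1.19 ± 0.22 (0.0095), and *Nedd4l*, a ubiquitin ligase that SGK1 phosphorylates, was higher at 0.97 ± 0.26 (0.0294). In lung 0 of 8 were called with all libraries and with null lung 1 dropped 5 were (3 higher, 2 lower), beside 37% of all genes. The 2 lower were the sodium channel genes *Scnn1b*, at -1.51 ± 0.15 (edgeR adjusted p = 0.00081), and *Scnn1g*, at -0.42 ± 0.12 (0.0313). The 3 higher were *Nedd4l* at 1.03 ± 0.12 (0.0014), *Tsc22d2* at 0.78 ± 0.13 (0.0036) and *Tsc22d4* at 0.42 ± 0.10 (0.0177).

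Markers of other cells were followed beside these results. The 7 adrenal markers summed to 52.7 to 122 CPM in WT liver and 254 to 295 CPM in null liver, nearly all of it from *Hsd3b1*, whose gene family has near-identical members. The defining adrenal genes were at or near 0, with *Cyp11b1* at 0 in all 12 libraries and *Cyp11b2* at 0.0413 CPM at most. Neutrophil markers, 6 genes, summed to 2001 to 4217 CPM in WT and 2868 to 4560 CPM in null liver, and 2 of them were called higher. Endothelial markers, 4 genes, summed to 235 to 242 CPM in WT and 256 to 275 CPM in null liver, with 2 called higher, *Pecam1* and *Cdh5*. The other 2 went the other way in every null liver and were not called. *Kdr* was at 81.5 to 86.9 CPM in WT and 53.8 to 71.5 CPM in null liver. *Tek* was at 24.6 to 28.6 CPM in WT and 15.1 to 22.9 CPM in null liver. Of 6 macrophage markers 1 was called higher in liver with all libraries and 0 without null liver 1. Hepatocyte and erythroid markers had 0 calls in liver, and of 4 haemoglobin symbols 3 were at 0 in all 12 libraries and *Hbb-bs* reached 0.0221 CPM at most. In lung without null lung 1, neutrophil markers were called higher for 4 of 6, muscle markers for 4 of 6 and macrophage markers for 2 of 5, and alveolar type 1 markers were called lower for 2 of 4. In the same fit 1 mesenchymal and 1 alveolar type 2 marker were called higher, 1 adrenal marker lower, and the endothelial and ciliated lists each had 1 marker higher and 1 lower. The part of these cells in the results above was not tested.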

How the data were processed

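The authors prepared stranded poly-A RNA libraries and deposited unnormalised read counts for each gene symbol, with 1 table for each library. The submitters' processing notes name FastQC, STAR 2.5.2a, DESeq2 and mm10, and the counting program, annotation and strand setting are not given in the sources used here, so reads shared with overlapping genes could be counted in more than 1 way. In 27 rows a date stands in place of the gene name, and none of them is a member.

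Counts were analysed with edgeR 4.0.16 in R 4.3.3 (filterByExpr, TMM, quasi-likelihood test, Benjamini-Hochberg adjustment), with the cut-off of the study's methods, adjusted p below 0.05 and 1.2-fold or more. Tissue differences were fitted over all 12 libraries. SEs were obtained as the absolute log2 fold change divided by the root of the F statistic. DESeq2 1.42.0 was an alternative. The fits for liver, lung, the tissue difference and WT tissues, with all libraries and no block, were tried on simulated counts with edgeR and DESeq2. Levels per kb used the longest principal transcript in GENCODE, and promoters were taken from RefSeq. Ratios were compared by exact permutation tests. No library was a copy of another: the lowest chi-square per gene between replicates was 14.7.

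All members are named. From each other list, genes called in either tissue were named by size of change, at most 6 per list and tissue. There were exceptions in lung. Genes called there among the chaperones and coregulators and among the metal handling genes were counted and not named. Of the other glucocorticoid targets called in lung, only the highest few, *Per1* and those called lower were named. *Per1*, *Trim63*, *Serpina6*, *Mtf1*, *Nr3c2*, the Hsp90 genes and the gluconeogenic genes were added after their values were seen. The 10 members and all gene lists were chosen with earlier results of these data known.

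Replicate numbers come from the sample labels. Liver and lung libraries of the same number deviated together (correlations 0.26, 0.22 and 0.18 in WT and 0.47, 0.37 and 0.42 in null mice), and each correlated best with its own number, so they were taken as pairs from 1 mouse, and the tissue comparisons, fitted without that block, were repeated with it.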

Additional observations from a re-analysis of the deposited data

Results flagged for a closer look

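The effect of the genotype on *Nr3c1* differed between tissues when null lung 1, the library low in alveolar markers, was left out: the effect in lung minus that in liver was -0.69 on the log2 scale (edgeR adjusted p = 0.0374), with every null liver above every WT liver and overlapping lungs. With all 12 libraries it was -0.89 (adjusted p = 0.149). Dropping each of the 12 libraries in turn gave adjusted p from 0.0374 to 0.347, and the call was made by edgeR with null lung 1 dropped and with none of the other 11. DESeq2 with all libraries gave 0.0285, and edgeR with the mice as a block and null mouse 1 left out gave 0.0542.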

How the results depend on the processing

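The liver count of 7 members was 4 to 7 over the fits that dropped 1 liver library, 4 without WT liver 1, 2 or 3, where calls over all genes fell from 3856 to 2150, 2268 and 1641, and the count of 18 other targets was 12 to 22. The lung count of 0 members was 3 with DESeq2, 2 with all 12 libraries in 1 fit, 0 to 7 with 1 library left out, and 7 with DESeq2 without null lung 1. The lung count of 1 other target was 13 with DESeq2, 0 with DESeq2 size factors, 0 with a minimum of 1 count, 3 with a minimum of 10 counts in every library, 11 with all 12 libraries, 0 to 22 with 1 library left out and 24 with DESeq2 without null lung 1. These counts went with the calls over all genes, 51 as reported, 2355 with DESeq2, 2 with its size factors, 0 with a minimum of 1 count, 210 with a minimum of 10, 2284 with all 12 libraries and 6444 with DESeq2 without null lung 1. For the tissue difference 0 members were called, and 1 with DESeq2, 0 to 1 with 1 library left out, and 1 without null liver 1 and null lung 1. Between WT tissues the 6 called became 6 to 9.

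With 1 library left out, signs changed for the lung values of *Hsd11b1* (-0.94 to 0.47) and *Nr3c1* (-0.049 to 0.30), for the tissue difference of *Hsd11b2* (-0.57 to 0.26), *Zbtb16* (-0.86 to 1.03), *Cebpd* (-0.45 to 0.15), *Sgk1* (-0.66 to 0.12) and *Hsd11b1* (-1.21 to 0.23), and for *Zbtb16* between WT tissues (-0.30 to 1.58). None of these was called in either sign. The lung ratio of *Hsd11b1* to *Hsd11b2* ran from -1.16 to 1.92 and that of *Mt1* to *Mt2* from -0.46 to 0.19, both highest without null lung 1. Without null liver 1 and null lung 1 the tissue differences of *Hsd11b1*, *Tsc22d3* and *Sgk1* were 0.14, 0.059 and 0.087, and by DESeq2 without null lung 1 *Hsd11b1* in lung was 0.50. The causes were not tested.

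WT and null libraries of the same number did not deviate together (2 of 6 correlated best with their own number in each tissue). With the replicate number as a block, 7 members and 19 other targets were called in liver and 0 and 0 in lung, where that fit called 0 of all genes and so says nothing of the members. With the mice as a block, 0 members, and 0 of all genes, were called for the tissue difference and 7 members between WT tissues. With that block and the libraries of null mouse 1 left out, 1 and 10 were called, and the tissue differences of *Hsd11b1*, *Tsc22d3* and *Sgk1* were 0.085, 0.020 and 0.20. The shares of all genes called by the blocked liver fit and the blocked fits between WT tissues are not given here. Those counts are therefore not read as results about the members. The settings with null mouse 1 left out and DESeq2 without null lung 1 were chosen after seeing the data.

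Depth limits *Hsd11b2* in liver and *Fam107a* in WT liver, where *Hsd11b2* had 2 to 12 reads and *Fam107a* 0.103 to 0.282 CPM. With 3 mice per group, and 2 where a library is left out, differences of several SEs could go uncalled. In lung with all libraries *Zbtb16*, at 2.87 ± 0.64 (SE), was not called (edgeR adjusted p = 0.0811). Calls near the threshold moved with single libraries.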

Other observations

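Among WT mice, the libraries numbered 1 stood high for *Zbtb16* and *Fkbp5* in both tissues. *Zbtb16* in WT mouse 1 was at 29.3 CPM in liver, against 7.22 and 6.64 CPM in the other WT livers, and at 38.5 CPM in lung, against 10.2 and 13.4 CPM. *Fkbp5* was at 187 CPM in liver, against 146 and 157 CPM, and at 139 CPM in lung, against 66.6 and 99.1 CPM. *Lpin1* was at 291 CPM in WT liver 1, against 62.5 and 122 CPM, and at 31.1 CPM in WT lung 1, against 24.5 and 25.7 CPM. *Klf9* was at 108 CPM in WT liver 1, against 69.5 and 68.7 CPM, and showed no such gap in WT lung, at 129, 137 and 129.6 CPM. *Mt1* and *Mt2* were highest instead in WT mouse 3, in both tissues. With 3 WT mice these are descriptions of single animals, chosen after the values were seen.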
